A study of Mus musculus with 10 samples.

Results

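The peptidases of the intestinal brush border were examined in RNA-seq libraries of proximal intestine from 5 wild-type (WT) mice and 5 mice labelled knockout (KO) for *Zip14* (*Slc39a14*), a zinc and manganese importer. The members are 9 genes, *Anpep*, *Enpep*, *Xpnpep2*, *Dpp4*, *Ace*, *Mme*, *Mep1a*, *Mep1b* and *Tmprss15*, taken by symbol from the 35275 Ensembl gene IDs counted in every library, and all 9 were found. By the study's methods the KO mice lack *Zip14* in all tissues, and WT mice of the same strain came from matings of heterozygotes. The series title instead speaks of enterocytes as the site of the deletion, and the labels give only KO, the name used here. Which deletion these mice carried could not be read from the counts. The labels put all mice at 8 to 10 weeks, with no treatment named, and each library is 1 mouse. Values are CPM, counts scaled to library size after TMM normalization, and fold changes come from edgeR's quasi-likelihood test over 15610 genes.

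Protein in a meal is cut first by proteases of stomach and pancreas, and the resulting peptides are trimmed at the enterocyte surface by membrane-bound peptidases whose catalytic parts face the lumen. The products are free amino acids, dipeptides and tripeptides, which transporters of the same membrane take up. Enteropeptidase, encoded by *Tmprss15*, stands at the head of this chain, since it turns trypsinogen into trypsin in the duodenum. Several of these enzymes also act on hormones: angiotensin-converting enzyme and neprilysin cut vasoactive peptides, and dipeptidyl peptidase 4 inactivates incretins.

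*Mme*, *Ace* and *Mep1a* showed the largest differences among the tested members, and their KO and WT libraries did not overlap. *Mme* and *Ace* fell 8.96-fold and 7.20-fold in KO libraries, *Mep1a* rose 6.02-fold, and *Xpnpep2* rose 2.39-fold with overlapping groups (ratios of group means of CPM). *Anpep*, *Enpep*, *Mep1b* and *Dpp4* did not pass the test. *Tmprss15* was at 73.9 and 135 CPM in 2 WT libraries, at 4.83 CPM in another and below 1 CPM in the other 7 libraries. Of the 8 members that passed the filter on low counts, 2 were called higher and 2 lower at an adjusted p under 0.05, against 16.0% of all tested genes called higher and 13.9% called lower (29.9% in either direction). Groups did not overlap for 3 of the 8 members and for 21.1% of all tested genes. The median log2 fold change was -0.21 over the 8 members and 0.03 over all tested genes. With scaling to library size only, the median of all genes was 0.15 and 69.42% of called genes were higher, against 53.45% with TMM, and no tested member changed its direction or call.

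Bases before the annotated starts of *Ace*, *Mep1a*, *Xpnpep2* and *Tmprss15* are shown as examples of a member that fell, members that rose and the member with few counts, a choice made after their values were seen. Each is 150 bases, read 5′ to 3′ on the strand of the gene from the RefSeq table of GRCm38.p6, and ends before the start of the gene in both RefSeq and GENCODE M21, which leaves 39 bases to the RefSeq start of *Mep1a* and 3 to that of *Ace*. In these lines capitals mark matches to short letter cores that factors of intestinal epithelium are known to bind. The cores searched on both strands were TTTAT for CDX2, GATAA for GATA factors, GTTAAT for HNF1 and CAAAG for HNF4. The first of the 2 *Ace* starts in that table is used, and *Mme*, which has 3 starts, is not shown.
*Ace*, chr11:105967795-105967944, plus strand: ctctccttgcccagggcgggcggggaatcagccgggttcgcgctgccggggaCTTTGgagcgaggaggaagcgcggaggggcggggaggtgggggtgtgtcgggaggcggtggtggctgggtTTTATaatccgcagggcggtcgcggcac
*Mep1a*, chr17:43502813-43502962, minus strand: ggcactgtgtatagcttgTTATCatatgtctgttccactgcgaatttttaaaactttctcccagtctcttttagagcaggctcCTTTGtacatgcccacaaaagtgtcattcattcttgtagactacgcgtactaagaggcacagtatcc
*Xpnpep2*, chrX:48108575-48108724, plus strand: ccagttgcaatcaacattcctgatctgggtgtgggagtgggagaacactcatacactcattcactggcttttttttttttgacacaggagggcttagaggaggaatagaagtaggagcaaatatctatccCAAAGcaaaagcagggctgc
*Tmprss15*, chr16:79091098-79091247, minus strand: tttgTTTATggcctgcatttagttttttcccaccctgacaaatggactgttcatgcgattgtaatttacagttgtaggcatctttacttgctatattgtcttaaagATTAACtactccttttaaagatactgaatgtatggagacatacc

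In these windows *Ace* held 1 CDX2 core, 31 to 27 bases before its RefSeq start, and 1 HNF4 core. *Mep1a* held 1 HNF4 and 1 GATA core, *Xpnpep2* held 1 HNF4 core, and *Tmprss15* held 1 CDX2 core and 1 HNF1 core, the latter on the opposite strand 44 to 39 bases before its start. Such short cores are common: over the 250 bases before the start, CAAAG lay in 48.6% of 32851 promoters, TTTAT in 37.3%, GATAA in 22.6% and GTTAAT in 6.43%. Over the same 250 bases *Anpep* held none of the 4 cores, and *Enpep*, which did not pass the test, held 4 HNF4 cores, more than *Mep1a* with 3. A match is a description of letters and shows no binding.

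The libraries were of similar depth, with totals between 16729787 and 20819678 counts in WT and between 17118742 and 19414828 in KO. *Slc39a14* was 260.4 ± 62.5 CPM in WT and 102 ± 32.9 CPM in KO libraries (SD, n = 5 each), with no overlap, and its log2 fold change was -1.35 (standard error 0.22, edgeR adjusted p = 0.00184). The labelled tissue was checked against markers of position. *Fabp6*, the ileal bile acid binding protein, was between 0.0638 and 1.74 CPM in WT and between 2307 and 9058 CPM in KO libraries. Of 7 ileal markers 5 were higher in KO and none lower, with a summed level of 669 to 1504 CPM in WT and 4012 to 11275 CPM in KO. Of 10 tested markers of the proximal small intestine 6 were lower and none higher, with a summed level of 9125 to 17676 CPM in WT and 158 to 1566 CPM in KO. Markers of smooth muscle moved too: 11 of 12 were higher in KO, and their sum was 1790 to 2967 CPM in WT and 4074 to 11883 CPM in KO. Of 15 enterocyte markers, 4 of which (*Fabp1*, *Apoa4*, *Lct* and *Slc2a2*) are also in the proximal list, 11 were lower and none higher, with a sum of 38257 to 55302 CPM in WT and 13637 to 29314 CPM in KO. Goblet cell markers were higher for 6 of 8 genes and markers of enteric neurons and glia for 8 of 8, while 3 of 7 enteroendocrine markers were lower and 1 higher, each list without overlap of its summed level between the groups. All libraries held *Xist*, at 309 to 590 CPM, and at most 1 count of the Y-linked *Ddx3y*. Genotype, the markers of position and the markers of these cell types differed together between the groups, and where along the intestine each section was taken is not recorded in the labels beyond proximal intestine, so their parts in any difference below cannot be told apart, nor can fewer enterocytes and less RNA per enterocyte.

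*Tmprss15* (ENSMUSG00000022857) lies on chromosome 16 from 78953008 to 79091097, minus strand. Enteropeptidase mRNA had 93, 2112, 1267, 2 and 1 counts in WT replicates 1 to 5, that is 4.83, 135 and 73.9 CPM in replicates 1 to 3 and at most 0.11 CPM in replicates 4 and 5. The KO libraries had 0, 4, 6, 15 and 0 counts, or at most 0.715 CPM, and the libraries without a count allow up to 0.169 and 0.157 CPM (3 counts, counting error only). WT replicates 1 to 3 were thus above every KO library, while WT replicates 4 and 5 lay within the KO range. The gene fell below the filter on low counts, and its mean log2 CPM differed by -4.07 (KO minus WT, exact permutation test, 2-sided p = 0.111, where 5 libraries against 5 can reach 0.00794). The same measure was -5.15 without WT replicate 4 and -5.26 without WT replicate 5 (exact permutation p = 0.0476 and 0.0397), and -2.84 without WT replicate 2 (exact permutation p = 0.198). Leaving out WT replicates 4 and 5 together, which was chosen after these values were seen and separates the groups by that choice, gave -7.10. Over all 10 libraries the difference of mean log2 CPM was -4.70 with a prior count of 0.5 (exact permutation p = 0.103), against -4.07 with 2. A fitted log2 fold change, which is another measure, was -7.36 from edgeR with no filter and -7.33 with a mean count of at least 10 (edgeR adjusted p = 0.0119 and 0.0146). In edgeR that value also depends on a prior count. DESeq2 gave -7.44 (adjusted p = 5.11e-04). *Pdx1*, which encodes a transcription factor of duodenum and pancreas, was highest in the same libraries, with 22, 231 and 107 counts in WT replicates 1 to 3, 4 and 3 counts in WT replicates 4 and 5, and 2 to 12 counts in KO libraries. *Onecut2*, another factor of the proximal intestine, was 68.1, 124 and 91.6 CPM in WT replicates 1 to 3, 18.1 and 20.2 CPM in WT replicates 4 and 5, and at most 1.52 CPM in KO libraries. The part of position along the intestine in the level of *Tmprss15* was not tested.

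**Figure D1:**
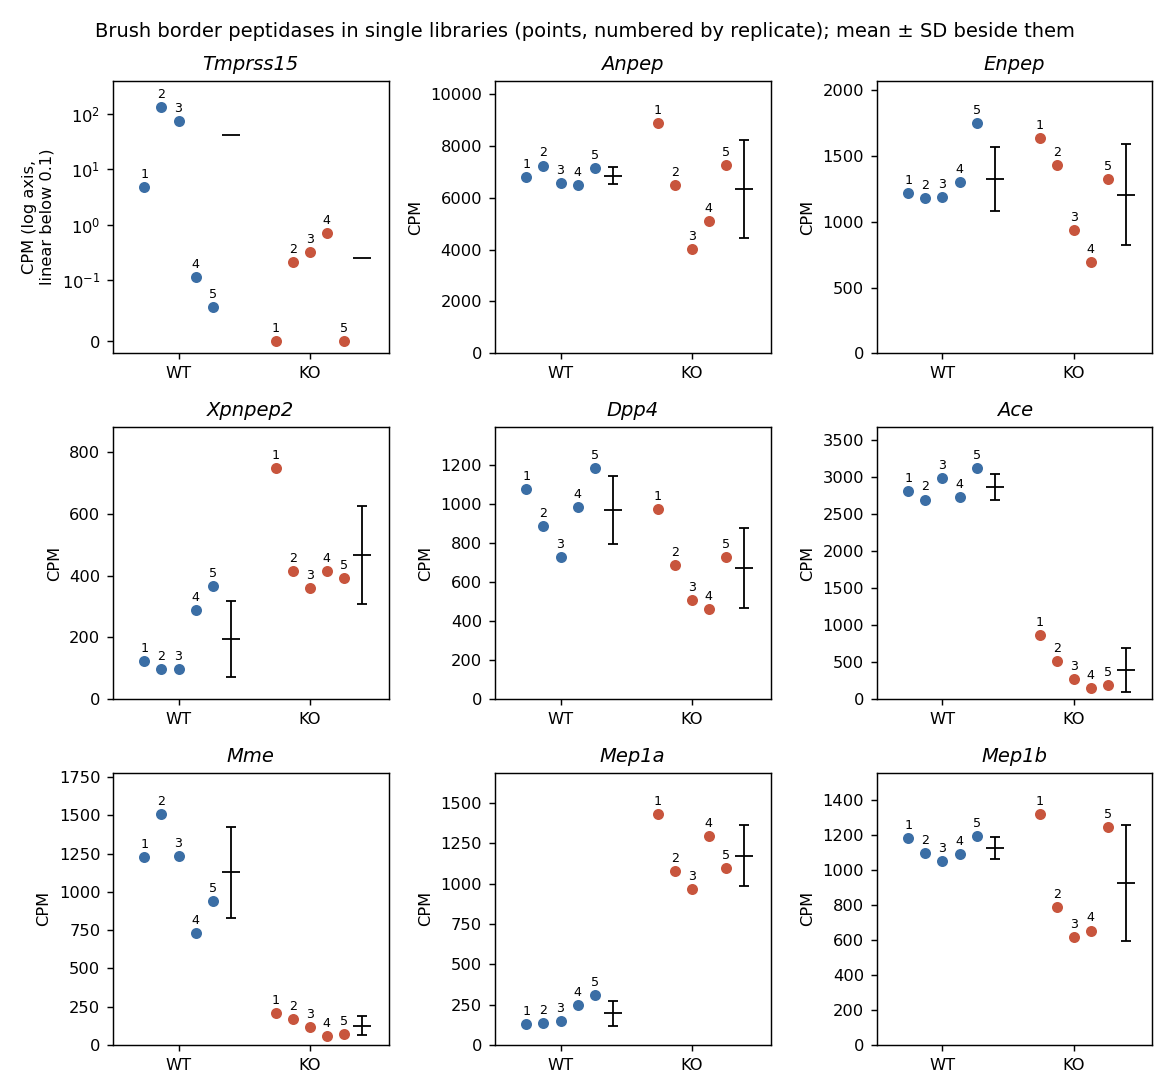
CPM of each member (y axis) in each library (points, numbered by replicate) of the WT and KO groups, with the group mean and, except for *Tmprss15*, ± SD as a black bar; the *Tmprss15* panel has a log axis that is linear below 0.1, the others start at 0. *Mme*, *Ace* and *Mep1a* separate the groups, and WT replicates 4 and 5 lie nearer to KO than the other WT libraries do for *Tmprss15*, *Mme*, *Mep1a* and *Xpnpep2*.

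*Anpep* (ENSMUSG00000039062, chromosome 7, 79821803 to 79861059, minus strand) encodes aminopeptidase N, which takes neutral residues from the amino end of peptides and is among the most abundant proteins of the brush border. It was 6808, 7242, 6575, 6498 and 7150 CPM in WT replicates 1 to 5 and 8898, 6472, 4009, 5104 and 7249 CPM in KO replicates 1 to 5. The KO libraries lay on both sides of the narrow WT range. The log2 fold change was -0.11 (standard error 0.21, edgeR adjusted p = 0.711). Its coefficient of variation was 4.86% over WT and 29.8% over KO libraries.

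*Enpep* (ENSMUSG00000028024, chromosome 3, 129269175 to 129332720, minus strand) encodes aminopeptidase A, a relative of aminopeptidase N that removes acidic residues and cuts angiotensin II. Its WT libraries held 1223, 1177, 1186, 1301 and 1755 CPM and its KO libraries 1637, 1433, 941, 698 and 1327 CPM. The groups overlapped, with a log2 fold change of -0.14 (standard error 0.23, edgeR adjusted p = 0.669). Set against *Anpep* in the same library, its log2 ratio was -2.38 ± 0.23 in WT and -2.41 ± 0.30 in KO (SD, n = 5 each), a difference of -0.02 (exact permutation test, p = 0.913). The sign of that difference turned when WT replicate 5 or KO replicate 4 was left out.

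*Xpnpep2* (ENSMUSG00000037005, chromosome X, 48108725 to 48136981, plus strand) encodes membrane-bound aminopeptidase P, which removes a residue that stands before proline. Counts of *Xpnpep2* came to 125, 96.5, 98.6, 289 and 365 CPM in WT and 747, 414, 359, 415 and 393 CPM in KO replicates 1 to 5. In 4 of 5 KO libraries it was above every WT library, and WT replicates 4 and 5 were closer to the KO values than to the other WT values. The mean rose from 195 ± 124 CPM to 466 ± 159 CPM (SD, n = 5 each), and the log2 fold change was 1.26 (standard error 0.40, edgeR adjusted p = 0.0356). This call was lost without WT replicate 1, 2 or 3 or KO replicate 1 or 4, with adjusted p between 0.0512 and 0.0841. The value was 2.11 without WT replicates 4 and 5, which were nearest to the KO libraries, so that the larger value follows from leaving them out.

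*Dpp4* (ENSMUSG00000035000, chromosome 2, 62330073 to 62412231, minus strand) encodes dipeptidyl peptidase 4, a serine peptidase that removes dipeptides where proline or alanine follows the first residue. Its levels were 1078, 890, 731, 984 and 1185 CPM in WT and 977, 688, 509, 461 and 729 CPM in KO libraries. KO replicates 2 to 5 were below every WT library, and KO replicate 1 was within the WT range. The log2 fold change of -0.53 (standard error 0.21) did not pass the test over all genes (edgeR adjusted p = 0.0781). Without KO replicate 1 it was -0.71 (adjusted p = 0.0168), and DESeq2 gave -0.55 (adjusted p = 0.0449). Relative to *Anpep*, the log2 ratio went from -2.83 ± 0.25 in WT to -3.24 ± 0.18 in KO (SD, n = 5 each), a difference of -0.40 (exact permutation p = 0.0317, or 0.0423 adjusted over the 4 ratios examined), with overlapping libraries. The ratio missed the threshold in 6 of 10 fits that left out 1 library, with permutation p up to 0.0635. The antisense gene *Gm13561*, which overlaps an exon of *Dpp4*, gave 59 counts in all WT and 44 in all KO libraries together.

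*Ace* (ENSMUSG00000020681, chromosome 11, 105967945 to 105989964, plus strand) encodes angiotensin-converting enzyme, which removes dipeptides from the carboxyl end. WT libraries were within a narrow range, at 2811, 2692, 2976, 2720 and 3112 CPM. KO libraries were at 867, 513, 267, 149 and 192 CPM, so that the highest KO library was far below the lowest WT library. *Ace* fell from 2862 ± 178 CPM to 397 ± 298 CPM (SD, n = 5 each), and the log2 fold change was -2.85 (standard error 0.44, edgeR adjusted p = 0.00151). Among KO libraries *Ace* varied most of the 8 tested members, with a coefficient of variation of 74.9% against 6.23% in WT. KO replicate 1 was the highest KO library for *Ace*, as for each of the 8 tested members, and it also held the most *Gata4* of the KO libraries, 59.4 CPM against 0.572 to 13.8 CPM in the others and 160 to 217 CPM in WT libraries. GATA4 is a transcription factor of the jejunum and duodenum. KO replicate 1 also had the highest summed enterocyte markers of the KO libraries, 29314 CPM against 13637 to 16422 CPM in the others. Its summed brush border scaffold genes, 15425 CPM, were the highest of that group too. What these have to do with the levels of the members was not tested. The antisense gene *Gm11651* shares exon sequence with *Ace* and gave 61 counts in all WT and 6 in all KO libraries together.

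*Mme* (ENSMUSG00000027820, chromosome 3, 63241537 to 63386030, plus strand) encodes neprilysin, a zinc endopeptidase that cuts peptides before hydrophobic residues. *Mme* was 1225, 1508, 1232, 733 and 943 CPM in WT and 207, 171, 119, 59.4 and 72.7 CPM in KO libraries. All KO libraries were below all WT libraries, and WT replicates 4 and 5 were the lowest of their group. The fall from 1128 ± 298 CPM to 126 ± 63.0 CPM (SD, n = 5 each) amounted on the log2 scale to -3.16 (standard error 0.36, edgeR adjusted p = 3.17e-04). Leaving out 1 library at a time gave values between -3.42 and -2.98.

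*Mep1a* (ENSMUSG00000023914, chromosome 17, 43474324 to 43502812, minus strand) and *Mep1b* (ENSMUSG00000024313, chromosome 18, 21061923 to 21100199, plus strand) encode the alpha and beta subunits of meprin, a zinc endopeptidase of the astacin family. The beta subunit spans the membrane, and the alpha subunit is held there through it or is secreted. *Mep1a* was 132, 137, 148, 249 and 309 CPM in WT and 1430, 1077, 966, 1297 and 1097 CPM in KO libraries. Every KO library was above every WT library, and within WT replicates 4 and 5 were the highest. The rise from 195 ± 79.9 CPM to 1173 ± 186 CPM (SD, n = 5 each) amounted on the log2 scale to 2.59 (standard error 0.26, edgeR adjusted p = 1.93e-04). Leaving out 1 library at a time gave 2.47 to 2.81.

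*Mep1b* held 1184, 1101, 1051, 1096 and 1197 CPM in WT and 1321, 791, 620, 655 and 1249 CPM in KO libraries. KO replicates 1 and 5 were above the WT range and the other KO libraries below it, and the log2 fold change of -0.28 (standard error 0.22) did not pass the test (edgeR adjusted p = 0.346). The subunits thus differed in what the test found, and their ratio was tested itself. The log2 ratio of *Mep1a* to *Mep1b* was -2.62 ± 0.54 in WT and 0.40 ± 0.46 in KO (SD, n = 5 each), a difference of 3.02 without overlap (exact permutation p = 0.00794, or 0.0159 adjusted over the 4 ratios). *Mep1a* had 0.111 to 0.258 times the CPM of *Mep1b* in WT libraries and 0.879 to 1.98 times in KO libraries.

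**Figure D2:**
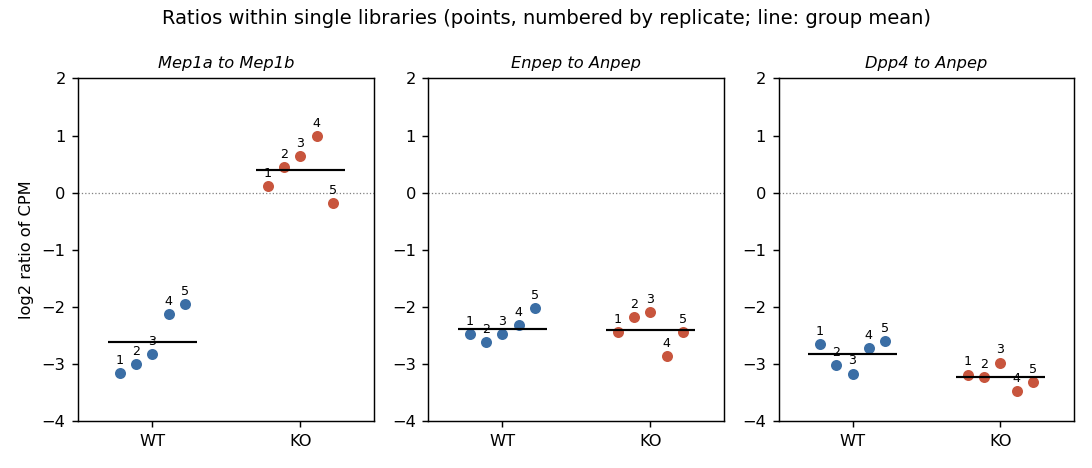
Log2 ratio of CPM (y axis) of 3 gene pairs within each WT and KO library (points, numbered by replicate), with the group mean as a line. *Mep1a* to *Mep1b* separates the groups, with means 3.02 apart, while *Enpep* to *Anpep* and *Dpp4* to *Anpep* overlap.

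**Figure D3:**
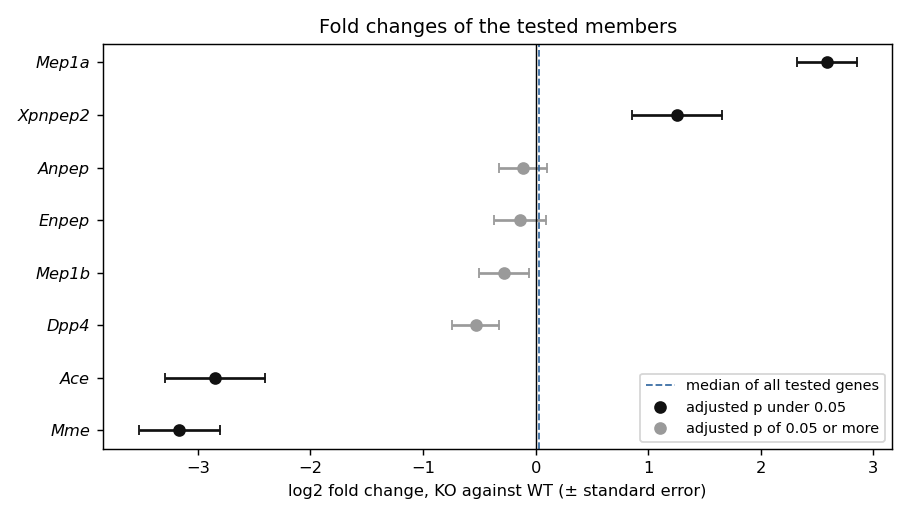
Log2 fold change of KO against WT (x axis) with its standard error for the 8 tested members, black where the adjusted p was under 0.05, and the median of all tested genes as a dashed line. The values run from -3.16 for *Mme* to 2.59 for *Mep1a*, with *Anpep*, *Enpep*, *Mep1b* and *Dpp4* grey.

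Per kilobase of exon, the order of levels in WT libraries was *Anpep* (1658 CPM per kb), *Ace* (541), *Mep1b* (429), *Enpep* (282), *Dpp4* (154), *Mme* (97.8), *Mep1a* (56.5), *Xpnpep2* (39.9) and *Tmprss15* (10.2 CPM per kb). Neighbours from *Anpep* down to *Dpp4* did not overlap in WT, while each of *Mme*, *Mep1a*, *Xpnpep2* and *Tmprss15* overlapped with the gene above it. In KO libraries the order was *Anpep* (1535 CPM per kb), *Mep1b* (353), *Mep1a* (340), *Enpep* (257), *Dpp4* (106), *Xpnpep2* (95.5), *Ace* (75.2), *Mme* (10.9) and *Tmprss15* (0.0597 CPM per kb). *Anpep* led in both groups, and *Ace* went from the second place to the seventh. *Mep1b* and *Mep1a* could not be ordered in KO, since *Mep1b* was the higher in 2 of 5 libraries. Ranges of neighbours from *Mep1b* to *Ace* overlapped in KO.

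The 9 genes together took between 1.35% and 1.55% of the counts of a WT library and between 0.843% and 1.57% of a KO library. *Anpep* alone made up 44.6% to 48.3% of these reads in WT and 51.5% to 58.9% in KO libraries. The share of *Ace* went from between 18.0% and 21.2% to between 1.56% and 5.39%, and that of *Mep1a* from between 0.904% and 1.93% to between 8.89% and 14.7%. Shares within a closed total move together, and they depend on gene length.

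**Figure D4:**
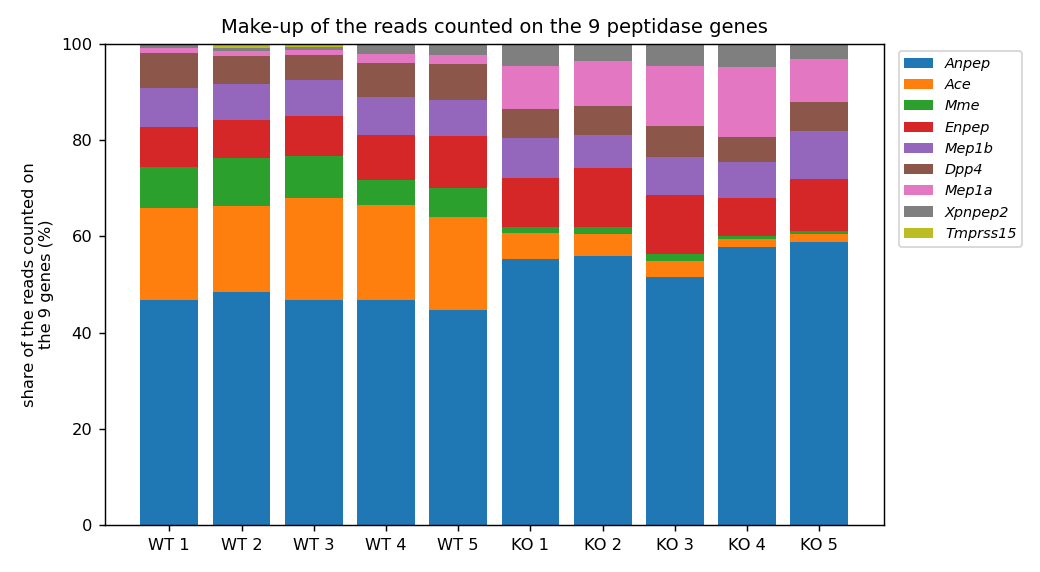
Share of the reads counted on the 9 genes (y axis, %) that each gene took in each library (bars). *Anpep* takes the most in every library, the *Ace* and *Mme* segments shrink in KO, and the *Mep1a* segment grows to 8.89% or more.

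Patterns over the 10 libraries were compared by the root mean square difference of log2 CPM centred on the mean of each gene. Among members *Anpep* and *Mep1b* were the closest pair (0.17), then *Dpp4* and *Mep1b* (0.22), while *Mme* and *Ace* were 0.35 and *Mep1a* and *Xpnpep2* 0.68 apart. Outside the members, the nearest tested gene was *Slc36a1*, a proton-coupled amino acid transporter, for *Mme* (0.28) and *Arl14* for *Ace* (0.24). For *Mep1a* it was *Gm28802* (0.21), for *Xpnpep2* *Ppp4r4* (0.27) and for *Tmprss15* *Sult6b2*, at the larger distance of 1.31. These distances are descriptions over 10 libraries in 2 groups, and they grow with how much a gene varies. The root mean square of centred log2 CPM was 0.30 for *Anpep*, 0.37 for *Mep1b* and 0.43 for *Dpp4*. It was 1.73 for *Mme*, 1.71 for *Ace* and 3.61 for *Tmprss15*. A smaller distance between genes that varied little is thus no measure of a closer pattern.

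**Figure D5:**
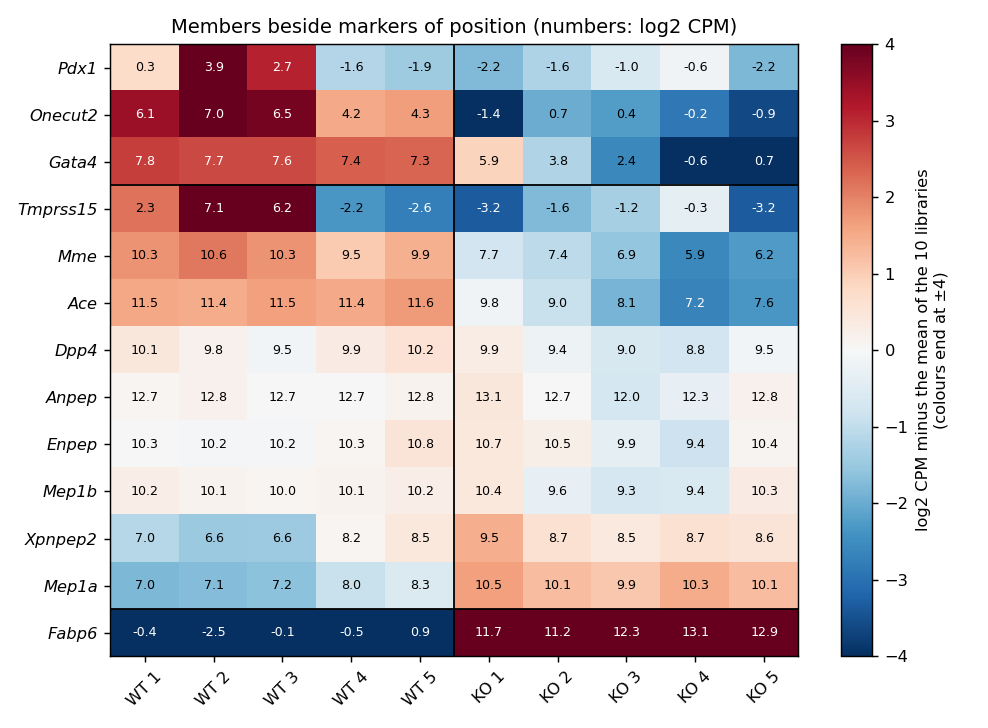
Log2 CPM (numbers) and its difference from the mean of the 10 libraries (colour, ending at ±4) for the members, for *Pdx1*, *Onecut2* and *Gata4* of the proximal intestine above them and for ileal *Fabp6* below them. *Tmprss15* and *Pdx1* are highest in the same 3 libraries, and *Fabp6* is above 11 in every KO library and below 1 in every WT library.

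Other peptidases of the cell surface moved in both directions. Of 21 genes 15 were tested, 4 rose and 3 fell, with a median log2 fold change of -0.02. Counts in this and the next lists are to be read against the 16.0% of all tested genes called higher and the 13.9% called lower. *Naaladl1*, which encodes a zinc peptidase of the enterocyte surface, was 731, 527, 522, 1752 and 1854 CPM in WT and 2979 to 5270 CPM in KO libraries, a log2 fold change of 1.94 (edgeR adjusted p = 0.00547). Here too WT replicates 4 and 5 were the highest of their group. *Dpep1*, a membrane dipeptidase, rose from 335 to 623 CPM (log2 fold change 0.90, edgeR adjusted p = 0.00107). *Ggt1*, gamma-glutamyltransferase, fell from 743 to 422 CPM (log2 fold change -0.82, edgeR adjusted p = 0.00375). Of 12 serine proteases of the membrane or the secretory pathway 8 were tested, of which *Prss30*, *Prss32* and *Hgfac* rose and none fell, with a median of 0.23. Of 15 meprin and zinc peptidase relatives and inhibitors 11 were tested, 3 rose and 1 fell. Peptidases inside the cell, 27 genes that all passed the filter, gave 2 higher and 3 lower, with a median of -0.13, and *Pepd*, which splits dipeptides ending in proline, fell by 0.69 on the log2 scale (edgeR adjusted p = 0.0158).

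Uptake of the products was counted as well. Of 12 tested transporters and partners for peptides and amino acids 1 rose and 7 fell, with a median log2 fold change of -1.14. *Slc15a1*, the peptide transporter PEPT1, was 838 CPM in WT and 471 CPM in KO and missed the threshold (log2 fold change -0.83, edgeR adjusted p = 0.0608). *Slc36a1* fell by 2.97 and *Slc7a8*, an exchanger of neutral amino acids in the basolateral membrane, by 3.10 on the log2 scale (edgeR adjusted p = 7.13e-05 and 0.0103). *Slc1a1*, a glutamate transporter, rose by 1.73 on the log2 scale (edgeR adjusted p = 1.60e-04). Of the 18 scaffold genes of the brush border 2 rose and 3 fell, near the share of 29.9% called over all tested genes, with a median of -0.32. The 3 that fell were *Myo7b* (-0.77), *Cobl* (-0.61) and *Plekhg6* (-0.45), with edgeR adjusted p = 0.00608, 0.0120 and 0.00666. *Vil1*, which encodes villin, did not pass the test at -0.49 (edgeR adjusted p = 0.105), and neither did *Myo1a*, *Cdhr2* or *Cdhr5*. The summed level of the scaffold genes was 13887 to 15917 CPM in WT and 10158 to 15425 CPM in KO libraries.

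With the mean level of the smooth muscle markers as a covariate no member was called by edgeR (1 higher and 2 lower at an unadjusted p under 0.05), and the log2 fold changes were -1.81 for *Mme*, -1.56 for *Ace* and 2.12 for *Mep1a*. With the mean level of the ileal markers as a covariate no gene of the 15610 was called by edgeR, and 1011 genes had an unadjusted p under 0.05. Of the 4 called members *Mme*, *Mep1a* and *Xpnpep2* then changed sign, and *Ace* went to -0.0277 (edgeR adjusted p = 0.998). Both levels were higher in every KO than in every WT library. With the mean level of the brush border scaffold genes as a covariate *Mme* (-2.85), *Ace* (-2.36) and *Mep1a* (2.69) were called (edgeR adjusted p = 0.00641, 0.0151 and 0.00170), and *Xpnpep2* (1.55) was not (edgeR adjusted p = 0.0583).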

How the data were processed

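Libraries were made with a SMARTer kit. For each library the authors deposited whole read counts by Ensembl ID, not normalized, and the submitters' processing notes list FastQC 0.11.9, Trimmomatic, HISAT2 2.0.4, SAMtools 1.3.1, DESeq2 1.14.1, GRCm38 and mm10. Read counter, annotation and strand handling were not given in the sources used here, so reads of antisense pairs cannot be assigned with certainty. IDs were matched to GENCODE M21 (34490 with a symbol).

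The tools were edgeR 4.0.16, DESeq2 1.42.0 and limma 3.58.1 in R 4.3.3. Genes that passed filterByExpr (at least 10 counts, total at least 15) were TMM scaled and compared with edgeR's quasi-likelihood test, with Benjamini-Hochberg adjustment over all 15610 genes and a threshold of 0.05. Ratios and *Tmprss15* were compared on log2 CPM (prior count 2) by exact 2-sided permutation over 252 splits, and 1 of the 4 ratios is not reported here. The lowest count of a tested member was 1246, with a counting error of 2.83%. Alternatives were RLE or library size scaling, other filters, a prior count of 0.5, robust dispersion, DESeq2, covariates, a block and leaving out libraries.

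The members and the 21 other gene lists were chosen with earlier results of these data known. Named were the members, *Slc39a14*, up to 4 of the most abundant and 3 of the lowest adjusted p per list, and 1 nearest gene per member. *Pdx1*, *Gata4*, *Xist*, *Ddx3y*, *Gm13561* and *Gm11651* were named after their values were seen.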

Additional observations from a re-analysis of the deposited data

Results flagged for a closer look

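Groups of 5 libraries were searched for a highest or lowest library whose gap to its neighbour exceeded 0.71 of the group's range. Of 24 groups 2 had one, and chance gives about 1 in 20. *Enpep* was 1755 CPM in WT replicate 5 (gap over range 0.786), above the other WT libraries at 1177 to 1301 CPM. *Xpnpep2* was 747 CPM in KO replicate 1 (gap over range 0.855), above the other KO libraries at 359 to 415 CPM, and this library also held the highest *Anpep*, *Mep1a*, *Mep1b*, *Ace*, *Mme*, *Dpp4* and *Enpep* of its group.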

How the results depend on the processing

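RLE scaling, library size scaling and robust dispersion changed no direction and no call among the 8 tested members, nor did a prior count of 0.5 for *Tmprss15* and the ratios. The number of genes called, 4660, was 16 with the smooth muscle covariate (2171 at an unadjusted p under 0.05), 1658 with the brush border scaffold covariate and 0 by edgeR with the ileum covariate (1011 unadjusted), and 3207 to 5507 without 1 library. Members called higher were 0, 1 and 0 with these covariates and 1 to 2 without 1 library, where *Xpnpep2* was lost. Members called lower were 0 with the smooth muscle or ileum covariate, 2 as before with the scaffold covariate, 4 with DESeq2 and 2 to 4 without 1 library. With DESeq2 and in some fits without 1 library 9 members were tested and not 8, since *Tmprss15* was then included and could be called. The smooth muscle covariate turned *Anpep* (0.41), *Enpep* (0.48), *Mep1b* (0.30) and *Dpp4* (0.0322), the scaffold covariate *Anpep* (0.22), *Enpep* (0.24) and *Mep1b* (0.13), and the ileum covariate *Anpep* (0.85), *Mep1b* (0.53), *Mme* (1.68), *Mep1a* (-1.63) and *Xpnpep2* (-4.59). None of these turned values passed the test, with edgeR adjusted p between 0.415 and 0.977. Leaving out 1 library gave -0.27 to 0.00703 for *Anpep* (highest without KO replicate 3) and -0.27 to 0.00824 for *Enpep* (highest without KO replicate 4). The cause was not tested. Leaving out 1 library gave -5.26 to -2.84 for *Tmprss15* (exact permutation p between 0.0397 and 0.198), 2.87 to 3.18 for the ratio of *Mep1a* to *Mep1b*, -0.49 to -0.34 for *Dpp4* to *Anpep* and -0.10 to 0.09 for *Enpep* to *Anpep*, the last 0.0668 without WT replicate 5 and 0.0938 without KO replicate 4. Without WT replicates 4 and 5 together these were -7.10 for *Tmprss15* (groups separated by the choice), -0.29 for *Dpp4* to *Anpep* (exact permutation p = 0.125) and 0.12 for *Enpep* to *Anpep*. The fitted log2 fold change of *Tmprss15*, another measure than the difference of mean log2 CPM above, was -7.36 from edgeR with no filter, -7.33 with a mean count of at least 10 and -7.44 from DESeq2 (adjusted p = 0.0119, 0.0146 and 5.11e-04).

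Replicate numbers did not pair the libraries: same-numbered deviations correlated at -0.17 to 0.18, and 1 of 5 WT libraries correlated best with its own number. With the replicate number as a block 3848 genes were called and *Dpp4* was -0.57 (edgeR adjusted p = 0.0407). The blocked ratios were 3.02 for *Mep1a* to *Mep1b* (exact sign-flip permutation p = 0.0625, the smallest that 5 pairs allow) and -0.40 for *Dpp4* to *Anpep* (exact sign-flip permutation p = 0.125). Low counts were a limit for *Tmprss15* only, with 0 to 15 counts in 7 of 10 libraries.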
